A study of Mus musculus with 8 samples.

Results

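Cell death can start at the plasma membrane, and 7 genes encode the core of that step: the death receptor Fas, the adaptor Fadd, the protease Casp8, its regulator Cflar, the kinases Ripk1 and Ripk3 and the pore-forming effector Mlkl. All 7 were chosen by symbol from a count table of 55414 mouse genes, all 7 were found in it, and all 7 passed the filter on low counts that left 14655 genes to test. They were followed in Kupffer cells, the macrophages that reside in the liver sinusoids, after surgery by caecal ligation and puncture (CLP), which lets gut bacteria into the abdomen to model sepsis, or after sham surgery (Sham). Every mouse was wild type on the C57BL/6J background, livers were taken 2 h after surgery, and the cells were isolated by fluorescence-activated sorting, with 4 CLP and 4 Sham libraries. The sources used here do not give sex, age, or the antibodies and gate of the sort. Whether each library is 1 mouse is not stated in the labels, and p-values therefore reflect the spread among these libraries.

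In outline, ligand binding to a death receptor such as Fas or the TNF receptor brings together Fadd and Casp8, and active caspase-8 then starts apoptosis. The Cflar product, c-FLIP, resembles caspase-8 without a working protease centre and binds to it, which holds back full caspase-8 activity. Caspase-8 paired with c-FLIP also cuts Ripk1 and Ripk3. Where that cutting fails, Ripk3 phosphorylates Mlkl, which opens the plasma membrane in the lytic death called necroptosis. Macrophages express this machinery, and several of its genes are known to respond to bacterial products and to TNF.

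Libraries held 23861073 to 28724875 counts in CLP and 23311897 to 28160750 in Sham. All 8 Kupffer cell markers examined were present, with a summed level of 26119 to 33375 CPM (read counts relative to the library size, scaled by trimmed mean of M-values, TMM) in CLP and 19439 to 25645 CPM in Sham. Neutrophil markers summed to 200 to 559 CPM for CLP and 82.4 to 120.0 CPM for Sham, and 8 of the 10 passed the count filter, all of them higher. Platelet markers summed to 18.4 to 40.7 CPM for CLP and 2.18 to 4.88 CPM for Sham. Sinusoidal endothelial markers summed to 2235 to 2765 CPM for CLP and 1554 to 1968 CPM for Sham, with 3 of 8 higher. Cdh5 made up most of that sum, at 1720 to 2217 CPM for CLP and 1075 to 1388 CPM for Sham. Of the same list, Stab2 stood at 281 to 306 CPM for CLP and 283 to 315 CPM for Sham. Kdr stood at 21.6 to 27.0 CPM for CLP and 11.7 to 19.9 CPM for Sham. Which cells the Cdh5 RNA came from was not tested. Hepatocyte markers overlapped, at 2560.0 to 3473 CPM for CLP and 1848 to 2674 CPM for Sham, with 1 of 7 higher. Most of that sum was Alb, at 2005 to 2777 CPM for CLP and 1408.5 to 2031 CPM for Sham. B cell markers summed to 79.8 to 95.1 CPM for CLP and 66.6 to 78.2 CPM for Sham, with 6 of 8 higher and 1 lower. Most of that sum was Cd22, at 57.2 to 70.7 CPM for CLP and 57.4 to 65.2 CPM for Sham. Ighm stood at 7.91 to 14.5 CPM for CLP and 1.54 to 1.71 CPM for Sham. Cd79b went the other way, at 2.93 to 6.95 CPM for CLP and 5.80 to 10.9 CPM for Sham. T and NK cell markers summed to 2.36 to 5.22 CPM for CLP and 0.794 to 1.34 CPM for Sham. Monocyte markers overlapped too, at 205 to 344 CPM for CLP and 158 to 264 CPM for Sham, with 1 of 4 tested higher. Most of that sum was Plac8, at 197 to 335 CPM for CLP and 154 to 259.5 CPM for Sham. Stellate cell markers summed to 38.7 to 57.3 CPM for CLP and 30.9 to 38.3 CPM for Sham. The part of RNA from these other cells in the results was not tested. CLP replicate 1 lay apart from the other CLP libraries (correlation of log2 CPM across genes with them 0.968 to 0.972). Sham replicate 1 held the highest Sham levels of several inflammatory transcripts, such as Tnf, at 21.2 CPM against 5.19 to 16.4 CPM in the other Sham libraries. TMM factors were 0.825 ± 0.0165 in CLP and 1.21 ± 0.0557 in Sham (SD, n = 4 each). Total-count scaling shifted the median log2 fold change of all genes by -0.56, and results that turn on this are given with both scalings.

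Within 2 h of CLP, the receptor gene Fas and the caspase-8 regulator gene Cflar rose strongly, by 18.3-fold and 7.55-fold, while the genes of the adaptor and the protease between them, Fadd and Casp8, fell to 0.565 and 0.766 of their Sham levels. Ripk1 and Ripk3 rose by 1.63-fold and 1.39-fold with TMM scaling, but with total-count scaling neither passed the threshold and the sign for Ripk3 turned. Mlkl did not pass the threshold with TMM scaling. In all, 4 of the 7 genes rose and 2 fell with TMM scaling, at an adjusted p of 0.05 in edgeR's quasi-likelihood test. With this scaling 54.3% of all tested genes passed, 24.9% as higher and 29.5% as lower. Also with TMM scaling, CLP and Sham libraries did not overlap for 6 of the 7 genes, 4 with CLP above and 2 with CLP below. Among all tested genes 49.5% did not overlap, 22.1% with CLP above and 27.3% with CLP below. Overlap was not counted with total-count scaling. The median log2 fold change of the 7 with TMM scaling was 0.47, and that of all tested genes was -0.04. A bulk measurement of this kind cannot tell a change in RNA per cell from a change in the number of cells of a type.

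**Figure D1:**
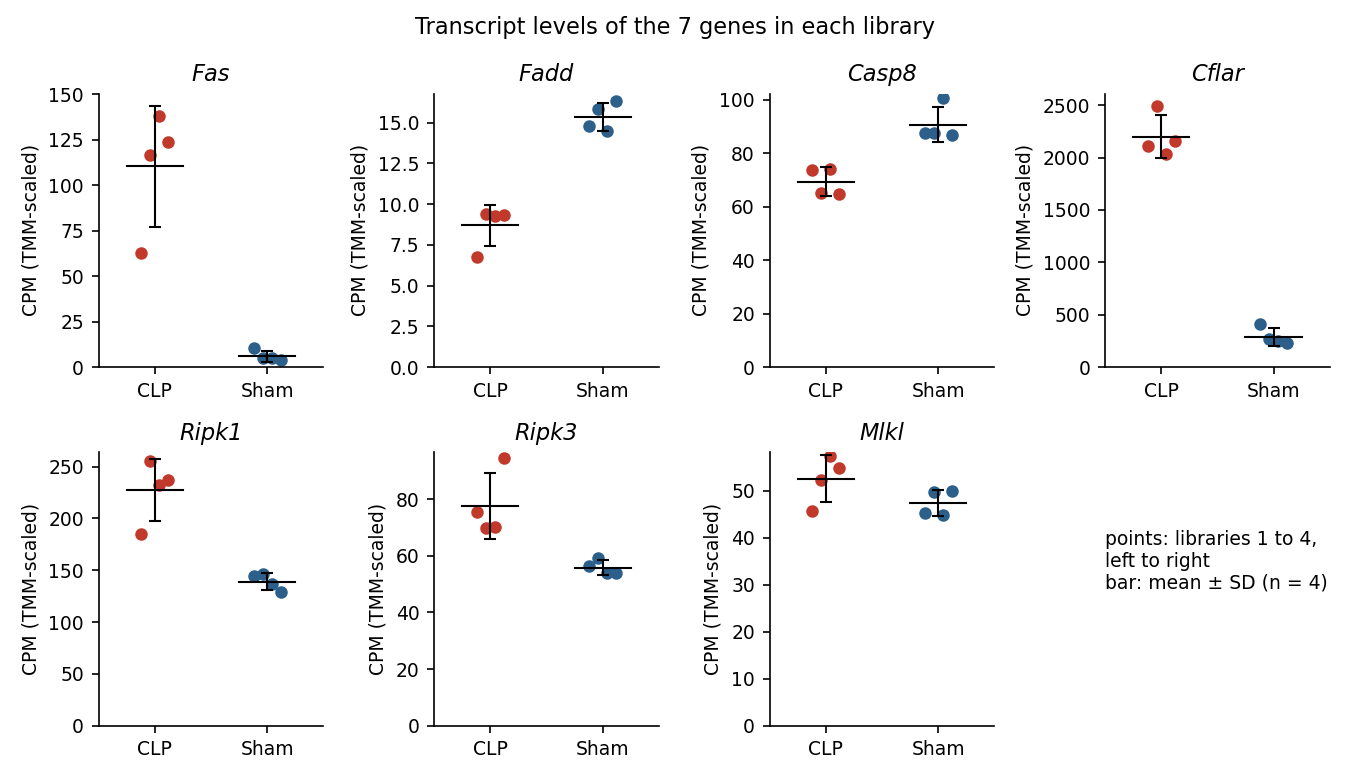
TMM-scaled CPM of each gene in the 4 CLP (red) and 4 Sham (blue) libraries, each axis starting at 0, with the mean and SD as bars. Fas and Cflar lie far higher in CLP, Fadd and Casp8 lie lower without overlap, and Mlkl overlaps.

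Fas (ENSMUSG00000024778, chromosome 19), the receptor for Fas ligand, had the largest change of the 7. Its level was 62.5, 117, 138 and 124 CPM in CLP replicates 1 to 4, against 10.3, 5.27, 4.80 and 3.73 CPM in Sham replicates 1 to 4. The lowest CLP library was thus well above the highest Sham library, and these extremes were the replicates numbered 1 of each group. Means were 110.3 ± 33.1 CPM for CLP and 6.03 ± 2.94 CPM for Sham (SD, n = 4 each). The log2 fold change came to 4.19 ± 0.35 (SE; edgeR adjusted p = 8.54e-06), with a 95% interval of 10.6-fold to 31.5-fold. Of the 14655 genes tested, 125 (0.853%) had a larger log2 fold change. In CLP 2053 tested genes were more abundant than Fas, and in Sham 9256 were.

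Within the CLP group, the library with the least Fas (replicate 1) also had the lowest neutrophil marker sum, 200 CPM against 326 to 559 CPM in the other CLP libraries. It also had the lowest platelet marker sum, 18.4 CPM against 22.1 to 40.7 CPM. Its Kupffer cell marker sum was the highest, 33375 CPM against 26119 to 29356 CPM. A link between Fas and neutrophil RNA was not tested. Csf3r alone had 148 to 318 CPM in the CLP libraries and 79.9 to 114 CPM in the Sham libraries. Without it the neutrophil markers summed to 51.9 to 241 CPM for CLP and 2.47 to 6.36 CPM for Sham. The markers Ly6g and Camp had 0 counts in every Sham library but were also near 0 in CLP. They stood there at 0.125 to 0.687 CPM for Ly6g and 0 to 1.17 CPM for Camp.

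Fadd (ENSMUSG00000031077, chromosome 7), the adaptor that links the receptor's death domain to caspase-8, was the least abundant of the 7 in CLP. It stood at 6.78, 9.37, 9.25 and 9.36 CPM in CLP replicates 1 to 4, against 14.8, 15.8, 14.5 and 16.3 CPM in Sham replicates 1 to 4. Every CLP library was below every Sham library, and CLP replicate 1 was lowest. The group means were 8.69 ± 1.27 CPM for CLP and 15.4 ± 0.857 CPM for Sham (SD, n = 4 each), and the log2 fold change came to -0.82 ± 0.14 (SE; edgeR adjusted p = 0.000595). The raw counts behind these values were 163 to 202 in CLP and 432 to 534 in Sham. In GENCODE M21 the antisense gene Faddos shares 6.12% of the Fadd exon bases on the opposite strand. The sources used here do not give the strand setting of the counting, so reads there cannot be assigned with certainty.

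Casp8 (ENSMUSG00000026029, chromosome 1), the protease that starts death receptor apoptosis, fell by less. Its values were 73.8, 64.9, 74.3 and 64.6 CPM in CLP replicates 1 to 4, against 87.6, 87.6, 100.5 and 86.9 CPM in Sham replicates 1 to 4. The groups did not overlap, and Sham replicate 3 was highest. With means of 69.4 ± 5.36 CPM for CLP and 90.6 ± 6.59 CPM for Sham (SD, n = 4 each), the log2 fold change came to -0.39 ± 0.10 (SE; edgeR adjusted p = 0.00752), a 95% interval of 0.657 to 0.893 of the Sham level. Casp8 and Fadd passed as lower in every one of the 18 alternative settings tried. Their log2 fold changes with total-count scaling were -0.94 for Casp8 and -1.38 for Fadd, larger falls than with TMM scaling.

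Cflar (ENSMUSG00000026031, chromosome 1) is the immediate neighbour of Casp8 among protein-coding genes, on the same strand, with the processed pseudogene Gm3841 between them in GENCODE M21, and it moved in the opposite direction. Levels of Cflar were 2106, 2496, 2031 and 2162 CPM in CLP replicates 1 to 4, against 416, 267, 252 and 229 CPM in Sham replicates 1 to 4. The CLP libraries were close to each other, while Sham replicate 1 stood above the other 3 Sham libraries. Means were 2199 ± 205 CPM for CLP and 291 ± 84.6 CPM for Sham (SD, n = 4 each), and the log2 fold change came to 2.92 ± 0.20 (SE; edgeR adjusted p = 3.37e-06). In CLP 60 tested genes were more abundant than Cflar, against 442 in Sham. Cflar held raw counts of 44333 to 50596 in CLP and 7508 to 13607 in Sham, the deepest coverage of the 7. The log2 fold change of Cflar with total-count scaling was 2.37, and that of Fas was 3.65, smaller rises than with TMM scaling.

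Ripk1 (ENSMUSG00000021408, chromosome 13), the kinase and scaffold at the TNF receptor, had 185, 256, 232 and 237 CPM in CLP replicates 1 to 4, against 144, 146, 137 and 129 CPM in Sham replicates 1 to 4. No CLP library reached down to the Sham values, and CLP replicate 1 was the lowest of its group. The means of Ripk1 were 227 ± 30.3 CPM for CLP and 139 ± 8.05 CPM for Sham (SD, n = 4 each). Its log2 fold change of 0.71 ± 0.12 (SE; edgeR adjusted p = 0.000606) dropped to 0.15 with total-count scaling (edgeR adjusted p = 0.239). Exons of Serpinb6a on the opposite strand cover 2.89% and those of the pseudogene Gm17084 on the same strand 6.12% of the Ripk1 exon bases in GENCODE M21, and reads there are uncertain.

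Ripk3 (ENSMUSG00000022221, chromosome 14), the kinase that activates Mlkl, had 75.5, 69.97, 70.1 and 94.6 CPM in CLP replicates 1 to 4, against 56.3, 59.3, 54.1 and 53.8 CPM in Sham replicates 1 to 4. The groups did not overlap, and CLP replicate 4 stood above the other CLP libraries. Averages were 77.6 ± 11.7 CPM for CLP and 55.9 ± 2.54 CPM for Sham (SD, n = 4 each). Ripk3 had a log2 fold change of 0.47 ± 0.12 (SE; edgeR adjusted p = 0.00551) with TMM scaling and of -0.08 with total-count scaling (edgeR adjusted p = 0.573).

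Mlkl (ENSMUSG00000012519, chromosome 8), the effector that breaks the plasma membrane in necroptosis, had 45.6, 52.3, 57.4 and 54.8 CPM in CLP replicates 1 to 4, against 45.3, 49.8, 44.9 and 49.9 CPM in Sham replicates 1 to 4. The groups overlapped. Means were 52.5 ± 5.05 CPM for CLP and 47.4 ± 2.76 CPM for Sham (SD, n = 4 each), with a log2 fold change of 0.15 ± 0.10 (SE; edgeR adjusted p = 0.249). The 95% interval of the fold change was 0.945 to 1.295. With total-count scaling Mlkl passed as lower (log2 fold change -0.41, edgeR adjusted p = 0.00544).

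**Figure D2:**
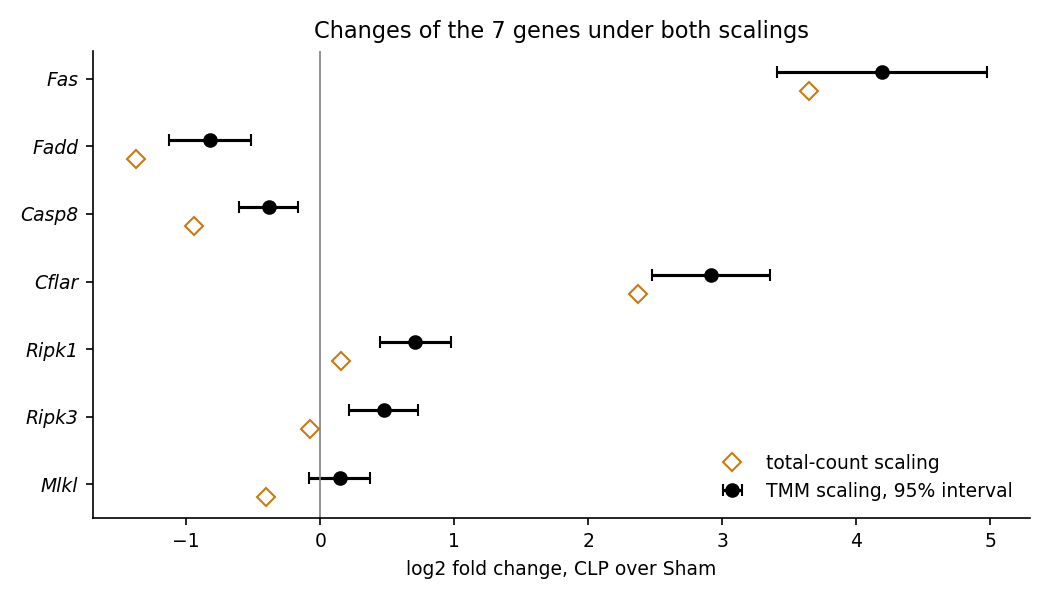
Log2 fold change, CLP over Sham, of each gene with TMM scaling (filled circles, with 95% intervals) and with total-count scaling (open diamonds). The diamonds lie to the left of the circles for every gene, which leaves Fas and Cflar higher and Fadd and Casp8 lower but moves Ripk3 and Mlkl across 0.

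A change of scaling moves all genes by nearly the same amount, so fold changes relative to the median of all tested genes are nearly equal under both scalings by construction and do not bear on which scaling holds. Relative to that median, log2 fold changes with total-count scaling were 4.24 for Fas, 2.96 for Cflar, 0.75 for Ripk1, 0.52 for Ripk3, 0.19 for Mlkl, -0.35 for Casp8 and -0.78 for Fadd. With TMM scaling the same quantities were 4.23, 2.96, 0.75, 0.51, 0.19, -0.34 and -0.78 in that order.

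A second yardstick, chosen after the data were seen, was the ratio of each gene's counts to the summed counts of the 8 Kupffer cell markers in the same library. CLP and Sham values of this ratio were fully apart for Fas (15.2-fold higher), Cflar (6.22-fold higher), Casp8 (0.614 of Sham) and Fadd (0.451 of Sham). They overlapped for Ripk1 (1.305), Ripk3 (1.11) and Mlkl (0.886). The share of all tested genes without overlap in this ratio was not computed. The summed markers were themselves 1.24 times as high in CLP as in Sham with TMM scaling and 0.850 times with total-count scaling, and 3 of the 8 rose, so they are not a fixed standard.

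Ratios of 2 of the 7 genes within a library need no scaling between libraries, and all 21 pairs were compared by a two-sided exact permutation test, whose smallest p over 70 splits is 0.0286. The ratio of Cflar to Casp8 counts was 28.5, 38.4, 27.3 and 33.5 in CLP replicates 1 to 4, against 4.75, 3.05, 2.51 and 2.64 in Sham replicates 1 to 4. It was 10.1-fold higher in CLP, a difference in log2 ratio of 3.34 with SDs of 0.22 in CLP and 0.42 in Sham (exact permutation p = 0.0286, or 0.0333 adjusted over the 21 pairs). The ratio of Ripk3 to Casp8 counts was 1.02, 1.08, 0.944 and 1.47 in CLP replicates 1 to 4, against 0.642, 0.677, 0.538 and 0.619 in Sham replicates 1 to 4. It was 1.80-fold higher in CLP with no overlap (exact permutation p = 0.0286, or 0.0333 adjusted). Every CLP library was above Sham for Cflar and Ripk3 and below Sham for Casp8, so both ratios had to separate. Their p-values follow from the values of the single genes and are no further support.

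Among the kinases and the effector of necroptosis, 1 of the 3 pairs was without overlap. Counts of Ripk1 over Mlkl gave 4.05, 4.89, 4.05 and 4.32 in CLP replicates 1 to 4, against 3.19, 2.94, 3.05 and 2.58 in Sham replicates 1 to 4, a difference in log2 ratio of 0.56 (exact permutation p = 0.0286, or 0.0333 adjusted). Every CLP library was above every Sham library in this ratio. Counts of Mlkl over Ripk3 gave 0.604, 0.747, 0.818 and 0.579 in CLP replicates 1 to 4, against 0.804, 0.839, 0.830 and 0.927 in Sham replicates 1 to 4. CLP replicate 3 lay within the Sham range, and the difference in log2 ratio of -0.32 did not pass (exact permutation p = 0.0571, or 0.0632 adjusted). Ripk1 over Ripk3 gave 2.44, 3.65, 3.31 and 2.50 in CLP replicates 1 to 4, against 2.57, 2.47, 2.53 and 2.39 in Sham replicates 1 to 4, and the groups overlapped (difference 0.24, exact permutation p = 0.286). Pairs share genes, so they are not separate results, and the share without overlap among pairs of other genes was not computed. Any pair of a gene that rose and a gene that fell had to separate, given the values of the single genes. Of the 21 pairs 18 were without overlap, all at the smallest p the test allows and so at the same adjusted p. The exceptions were Mlkl over Ripk3, Ripk1 over Ripk3 and Casp8 over Fadd, at 6.90 to 10.9 in CLP and 5.32 to 6.94 in Sham (exact permutation p = 0.0857).

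**Figure D3:**
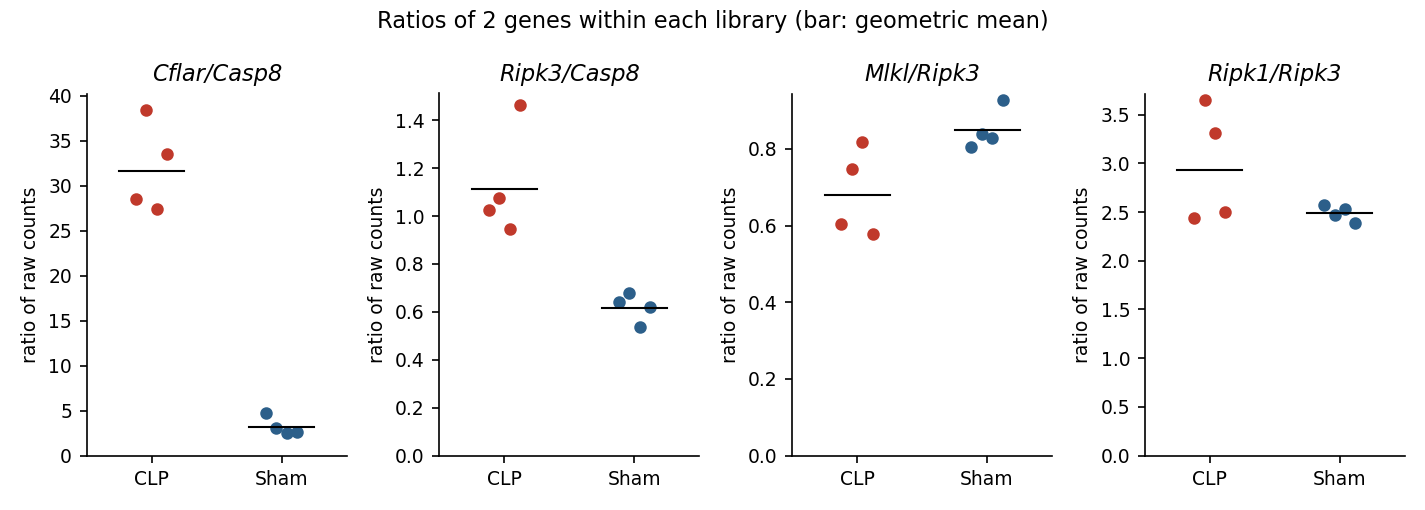
Ratio of the raw counts of 2 genes in each CLP (red) and Sham (blue) library, each axis starting at 0, with the geometric mean as a bar. Cflar/Casp8 and Ripk3/Casp8 are higher in every CLP library, while Mlkl/Ripk3 and Ripk1/Ripk3 overlap between the groups.

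Levels of different genes were compared as TMM-scaled CPM per kilobase of merged exon. In CLP, Cflar led at 173.5 ± 16.2 CPM per kb (SD, n = 4), and Fas was next at 53.5 ± 16.1 CPM per kb, without overlap. Ripk3 at 33.8 ± 5.08, Ripk1 at 27.2 ± 3.63, Casp8 at 24.0 ± 1.85 and Mlkl at 22.8 ± 2.19 CPM per kb formed a middle group in which each neighbour overlapped the next, as Fas did with Ripk3. Fadd was last at 2.23 ± 0.327 CPM per kb, below every value of Mlkl.

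The Sham order was different at both ends. Casp8 led at 31.3 ± 2.28, followed by Ripk3 at 24.4 ± 1.11, Cflar at 22.97 ± 6.68, Mlkl at 20.6 ± 1.198 and Ripk1 at 16.7 ± 0.965 CPM per kb (SD, n = 4). Fadd at 3.94 ± 0.220 and Fas at 2.92 ± 1.42 CPM per kb came last. In Sham, Ripk3 and Cflar, Cflar and Mlkl, and Fadd and Fas overlapped between libraries, while the other neighbours did not. The place of Cflar depends on the length used: its merged exons span 12669 bases and its longest transcript 6572, and with longest transcripts it led in Sham too, at 44.3 ± 12.9 CPM per kb, ahead of Casp8 at 35.1 ± 2.55.

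**Figure D4:**
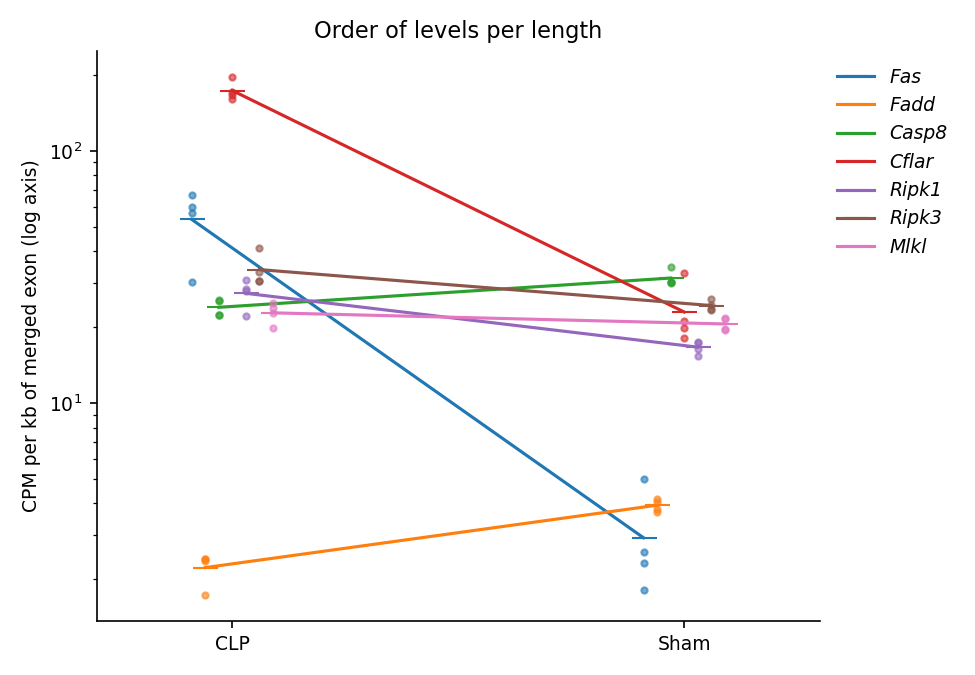
TMM-scaled CPM per kilobase of merged exon on a log axis, with 4 points per gene and group and a line joining the CLP and Sham means. Cflar and Fas lead in CLP, where Fadd is last, while Casp8 leads in Sham, where Fas is last.

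Libraries of one group also differed among themselves to different degrees. The coefficient of variation over the 4 libraries was largest for Fas, at 30.0% in CLP and 48.7% in Sham. Cflar varied by 9.34% in CLP and by 29.1% in Sham, where replicate 1 was high. For the other 5 genes it ran from 7.72% to 15.0% in CLP and from 4.55% to 7.27% in Sham. Leaving out Sham replicate 1 gave log2 fold changes of 4.60 for Fas and 3.16 for Cflar.

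Promoter windows of 250 bases before to 50 after the annotated start were read from RefSeq (GRCm38.p6) and searched on both strands for 3 short patterns. The 7 genes have 8 such windows, since Ripk1 has a pair. An NF-kB pattern (GGGA, any 4 bases, CC) was in none of the 8, against 20.7% of all 32851 windows. An interferon response pattern (GAAA, any 2 bases, GAAA), which is in 3.44% of all windows, was found in a Ripk1 window and in that of Cflar. A STAT pattern (TTC, any 3 bases, GAA), in 8.3% of all windows, was found at 2 places in a Ripk1 window and at 1 in that of Fas. A match describes letters and is not evidence of binding, and a missing match says nothing about sites elsewhere. These stretches are shown because they hold all the matches, in capitals, for genes that rose with TMM scaling. They lie at chr13:34002726-34002889, chr1:58711457-58711506 and chr19:34290526-34290614, all on the plus strand of GRCm38.p6, and in Ripk1 the interferon response pattern overlaps the STAT pattern next to it.
Ripk1: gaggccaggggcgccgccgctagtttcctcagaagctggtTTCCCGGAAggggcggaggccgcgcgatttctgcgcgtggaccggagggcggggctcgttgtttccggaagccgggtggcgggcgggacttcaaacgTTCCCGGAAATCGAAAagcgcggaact
Cflar: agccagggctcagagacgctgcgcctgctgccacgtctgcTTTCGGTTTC
Fas: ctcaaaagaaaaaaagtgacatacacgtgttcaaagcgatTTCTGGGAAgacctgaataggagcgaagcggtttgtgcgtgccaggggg

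The genes most like each member across the 8 libraries were found by the root mean square difference of log2 CPM, each gene centred on its own mean. Candidates were 7751 protein-coding genes with a mean of at least 10 CPM over the 8 libraries. Nearest to Cflar were Rapgef2, which differed by 0.10, and Map2k3, by 0.12. Nearest to Fas were Cemip2, by 0.18, and Cd63, by 0.26. Cd63 stood at 35.6 CPM for CLP and 1.51 CPM for Sham, so it met the minimum only through CLP. Stx5a and Golga3 came nearest to Casp8 (0.04 and 0.05), Zbtb6 and Med23 to Fadd (0.07 and 0.08), and Rars and Ythdf3 to Ripk1 (both 0.06). Pdhb was among the nearest to Ripk3 (0.06), and Il10rb and Tars came nearest to Mlkl (0.06 and 0.07). The 8 libraries form 2 groups, so the measure includes the difference between CLP and Sham.

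Around these 7, 70 further genes that act with them were listed in 9 roles. Of the 67 tested, 32 (47.8%) rose and 11 (16.4%) fell, beside 24.9% and 29.5% of all tested genes, with a median log2 fold change of 0.32 against -0.04 for all tested genes. With total-count scaling the counts were 16 higher and 31 lower, beside 1715 higher and 8292 lower among all 14655 tested genes. The values below are for TMM scaling.

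Among the ligands of death receptors, Tnf stood at 359 ± 119.8 CPM for CLP and 13.5 ± 6.84 CPM for Sham (SD, n = 4 each; log2 fold change 4.73). Tnfsf10, which encodes TRAIL, fell, at 5.57 ± 1.82 CPM for CLP and 19.2 ± 4.06 CPM for Sham (-1.78). Tnfsf12, which encodes TWEAK, did not pass with TMM scaling, at 7.22 ± 1.90 CPM for CLP and 8.33 ± 0.997 CPM for Sham, and passed as lower without CLP replicate 1 (-0.41). Fas ligand (Fasl) was too low to test, with 7 counts over the 4 CLP libraries and 6 over the 4 Sham libraries, so the rise of its receptor gene was measured in libraries with almost no Fasl. Lta and the TRAIL receptor gene Tnfrsf10b were also too low to test.

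Of 5 receptors tested 3 rose: the TNF receptor genes Tnfrsf1a and Tnfrsf1b (log2 fold changes 0.72 and 0.70), which did not pass with total-count scaling, and the interferon receptor gene Ifnar1 (0.43), whose sign turned with it. Tlr3, a sensor of double-stranded RNA, fell (-0.96). The lipopolysaccharide receptor gene Tlr4 did not pass, at 202 ± 55.3 CPM for CLP and 213 ± 15.1 CPM for Sham. Of 5 adaptors and sensors 3 rose: Ticam1, which links Toll-like receptors to Ripk1 (1.55), and the TNF receptor adaptors Traf5 (1.50) and Traf2 (0.82). Tradd, the death domain adaptor at the TNF receptor, fell (-0.89), as did Fadd. Zbp1, a nucleic acid sensor that engages Ripk3, did not pass (-0.11). With total-count scaling Tnfsf12, Tlr4 and Zbp1 passed as lower (-0.75, -0.64 and -0.66).

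Ubiquitin chains and inhibitory phosphorylation are known to decide whether Ripk1 acts as a scaffold for survival or as a death kinase. Of 13 ubiquitin ligases, deubiquitinases and their partners 7 rose and 0 fell. Tnfaip3, which encodes the ubiquitin editor A20, stood at 4928 ± 779 CPM for CLP and 202 ± 109 CPM for Sham (4.61). Its partner Tnip1 had 373 ± 69.7 CPM for CLP and 49.1 ± 22.8 CPM for Sham (2.92). The caspase inhibitor gene Xiap was the most abundant of the list that did not pass with TMM scaling (0.12), and with total-count scaling it passed as lower (-0.43).

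Among 8 checkpoint kinases and their subunits 5 rose and 0 fell. Ikbke (2.01), Mapkapk2 (1.67) and Tbk1 (1.23) encode kinases known to phosphorylate Ripk1, and they rose with both scalings. Ikbkb, another such kinase gene (0.53), and Tab2, which encodes a partner of the kinase TAK1 (0.46), rose with TMM scaling, and their signs turned with total-count scaling. Tab2 also did not pass without CLP replicate 3 (0.37) or with upper quartile scaling (0.35). Map3k7, which encodes TAK1 itself, did not pass with TMM scaling (0.12) and passed as lower with total-count scaling (-0.44).

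**Figure D5:**
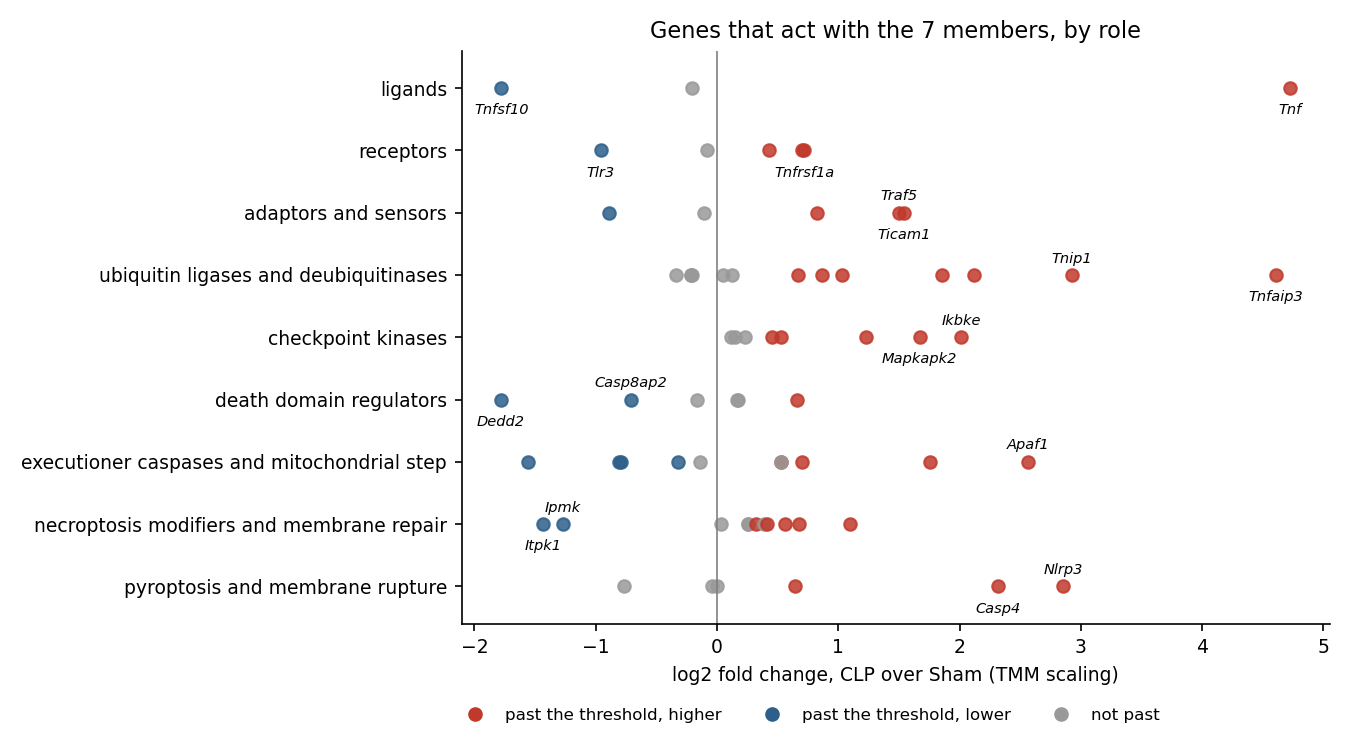
Log2 fold change, CLP over Sham, of 67 tested genes in 9 roles with TMM scaling, red where they passed the threshold as higher, blue where they passed as lower and grey where they did not pass. Tnf and Tnfaip3 lie farthest to the right, and the lists of ubiquitin enzymes, checkpoint kinases and pyroptosis genes hold no blue point. Total-count scaling gives 16 higher and 31 lower over all roles, beside 1715 higher and 8292 lower among all tested genes.

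Regulators that contact Casp8, Fadd or Fas were divided. Dedd2, which encodes a death effector domain protein, fell, at 3.33 ± 0.931 CPM for CLP and 11.4 ± 1.95 CPM for Sham (-1.78). It reached the 10 CPM asked of named genes only in Sham. Casp8ap2, which encodes a caspase-8 binding protein, also fell (-0.71). Pea15a, which also encodes a death effector domain protein, rose (0.66) but did not pass with total-count scaling. Daxx, which encodes a Fas-binding regulator, did not pass (0.18).

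In the executioner and mitochondrial step 4 of 10 genes rose and 4 fell. Apaf1, the scaffold of the apoptosome, stood at 650.2 ± 163 CPM for CLP and 109.8 ± 22.5 CPM for Sham (2.57), while Casp9, the caspase it activates, fell (-1.56). The caspase gene Casp6 fell (-0.81). Bax, which permeabilises mitochondria, rose with TMM scaling (0.70) but did not pass with total-count scaling, and the cytochrome c gene Cycs rose with TMM scaling (0.53) and turned sign with total-count scaling. Bak1, a relative of Bax, passed as lower (-0.32), and that call was lost without CLP replicate 2 or 4 or without Sham replicate 1, 2 or 4 (-0.33 to -0.25), and with DESeq2, RLE size factors and GC correction (-0.26, -0.26 and -0.23). Bid, which caspase-8 cuts, did not pass, at 13.6 ± 4.39 CPM for CLP and 9.44 ± 1.70 CPM for Sham, but passed as higher without CLP replicate 1 (0.74), without the first library of both groups (0.69) and with DESeq2 (0.59).

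Among 11 modifiers of necroptosis and membrane repair genes 5 rose and 2 fell. The 2 that fell, Itpk1 (-1.44) and Ipmk (-1.27), encode inositol phosphate kinases of the pathway whose products are known to help activate MLKL. Chmp4b, of the membrane repair complex ESCRT-III, rose with both scalings (1.10). The flotillin gene Flot1 (0.67) and the phosphatase gene Ppm1b (0.56), whose product acts on Ripk3, rose with TMM scaling and did not pass with total-count scaling. Flot2 (0.41) and the ESCRT-III gene Chmp2a (0.32) also rose with TMM scaling, but with total-count scaling their signs turned. The call for Chmp2a was lost without CLP replicate 3 or without Sham replicate 2, 3 or 4 (0.26 to 0.33), without the first library of both groups (0.29), with upper quartile scaling (0.21) and with no filter on low counts (0.26). The chaperone gene Hsp90ab1 did not pass with TMM scaling (0.25) and passed as lower with total-count scaling (-0.30), but it passed as higher with DESeq2 and with RLE size factors (both 0.32; adjusted p = 0.00133 and 0.0321).

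Of 6 genes of pyroptosis and membrane rupture, lytic death outside this pathway, 3 rose. Nlrp3, an inflammasome sensor gene (2.86), and Casp4, which encodes the mouse inflammatory caspase that senses lipopolysaccharide (2.32), rose with both scalings. Ninj1, needed for membrane rupture (0.64), did not pass with total-count scaling. The pore gene Gsdmd did not pass with TMM scaling, at 69.0 ± 7.85 CPM for CLP and 71.0 ± 4.25 CPM for Sham, and passed as lower with total-count scaling (-0.59).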

How the data were processed

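RNA-seq of 4 CLP and 4 Sham Kupffer cell libraries was analysed, made with a stranded TruSeq kit per the labels' protocols. The deposited table holds raw read counts per Ensembl gene. The submitters' processing notes name FastQC, STAR 2.7.10b, featureCounts, DESeq2 and mm39, and the sources used here do not give settings, annotation release or strand setting. Symbols and exon lengths came from GENCODE M21 (GRCm38), which held 52133 of the 55414 IDs.

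After filterByExpr and TMM, genes were tested in R 4.3.3 with edgeR 4.0.16 (robust quasi-likelihood F-test, surgery as the single term), and p-values were adjusted by Benjamini-Hochberg over 14655 genes (threshold 0.05). The SE was the absolute log2 fold change over the square root of F. Libraries were correlated on log2 CPM with a prior count of 2. Alternatives used DESeq2 1.42.0 and limma 3.58.1 voom. The fits were also run on simulated data in which few genes changed, as many up as down. That setting differs from these data and does not bear on the choice of scaling. The members, lists, motifs and tests were chosen with earlier results of these data known. Among the further genes, the text names up to 2 per role with the largest change past the threshold and at least 10 CPM in the higher group, the most abundant that did not pass, and the called genes of any count of 5 or fewer; some results under this rule are not reported here.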

Additional observations from a re-analysis of the deposited data

Results flagged for a closer look

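In 112 groups of 4 libraries examined, 11 held a library far from the other 3, with a gap to the nearest of them, as a share of the group's range, above Dixon's 95% critical value. By the definition of that value about 1 in 20 groups would be picked out by chance. Among the 7 genes, Fadd was at 6.78 CPM in CLP replicate 1 and at 9.25 to 9.37 CPM in the other CLP libraries, and Casp8 was at 100.5 CPM in Sham replicate 3 and at 86.9 to 87.6 CPM in Sham replicates 1, 2 and 4. Of the further genes, CLP replicate 1 was high in Ninj1 (603 CPM, others 484 to 492), and CLP replicate 3 was high in Traf2 (44.98 CPM, others 35.9 to 37.4) and Casp9 (18.0 CPM, others 14.5 to 14.7). Sham replicate 1 was high in Tnfaip3 (364 CPM, others 128 to 167), Tnip1 (82.96 CPM, others 34.9 to 42.7), Apaf1 (143 CPM, others 93.3 to 101.5) and Ppm1b (22.1 CPM, others 19.3 to 19.4). Sham replicate 2 was high in Bak1 (63.1 CPM, others 54.1 to 54.6), and Sham replicate 3 was low in Casp6 (8.89 CPM, others 10.3 to 10.6).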

How the results depend on the processing

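Each gene was refitted under 18 alternatives. Fas, Cflar, Casp8 and Fadd kept their direction and their side of the threshold in all 18, and Ripk1, Ripk3 and Mlkl in 17. The exception was total-count scaling, with log2 fold changes of 0.15 for Ripk1 (no longer past the threshold), -0.079 for Ripk3 and -0.41 for Mlkl. Under it 1715 genes passed as higher and 8292 as lower, an upward share of 17.1% against 45.8% with TMM, and the further genes numbered 16 higher and 31 lower. Signs turned there for Ifnar1 (-0.12), Xiap (-0.43), Map3k7 (-0.44), Tab2 (-0.098), Ikbkb (-0.029), Daxx (-0.38), Bid (-0.033), Cycs (-0.023), Hsp90ab1 (-0.30), Flot2 (-0.14) and Chmp2a (-0.23). Signs of values near 0 also turned for Gsdmd with DESeq2 and with RLE size factors (both 0.019), and for Tlr4 without the first library of both groups (0.025), a setting chosen after the data were seen, in which 8840 genes passed, the further genes numbered 32 higher and 14 lower, and no call among the 7 changed. Leaving out each library gave -0.12 to 0.0082 for Gsdmd, -0.28 to 0.054 for Zbp1 and -0.26 to 0.063 for Tlr4. It gave 0.65 to 0.80 for Ripk1, 0.37 to 0.52 for Ripk3, 0.11 to 0.21 for Mlkl, -0.41 to -0.33 for Casp8, -0.86 to -0.72 for Fadd, 2.82 to 3.16 for Cflar and 4.02 to 4.60 for Fas. The log2 count ratio ranged from 3.23 to 3.54 for Cflar/Casp8 and from 0.72 to 0.93 for Ripk3/Casp8, where 3 against 4 libraries cannot go below an exact permutation p of 0.0571.

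Replicate numbers were not taken to pair the libraries, with correlations of deviations of 0.17, -0.12, 0.13 and -0.085. With the replicate block 7794 genes passed, and the calls for the 7 genes were the same, while those for Bak1 (-0.32) and Chmp2a (0.31) were lost. The differences within a number for Cflar/Casp8 (3.34) and Ripk3/Casp8 (0.85) gave an exact sign-flip p of 0.125, the smallest that 4 pairs allow. With longest transcripts in place of merged exons, 7 of 7 genes held their place in the CLP order and 4 of 7 in the Sham order. Depth limited what could be tested for Fasl, Lta and Tnfrsf10b, which had at most 45 counts over the 4 libraries of a group.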
